A study of Homo sapiens with 18 samples.

Results

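Clustered protocadherins are cadherin-like proteins of the cell surface whose genes stand in 3 neighbouring clusters, alpha, beta and gamma, on the long arm of human chromosome 5. They were taken here as every gene symbol made of PCDHA, PCDHB or PCDHG with an isoform number (with the letters A, B or C before the number in the gamma cluster and C in the alpha cluster), without pseudogenes. This gave 53 of the 40266 symbols in the table, 15 alpha, 16 beta and 22 gamma members. They were followed in RNA sequencing of 2 human pancreatic ductal adenocarcinoma (PDAC) lines, Panc1, from a primary tumor, and Panc89, from a lymph node metastasis. Each line was sequenced as parental cells, as Holoclone cells and as Paraclone cells, with 3 libraries in each of the 6 groups and 18 in all. Holoclone and Paraclone cells are populations grown from 1 cell each and chosen by colony shape, so a difference between a Holoclone and a Paraclone population of a line cannot be told apart from a difference between 2 single clones. Likewise, a difference between a cloned population and its parental line cannot be told apart from a trait of that single clone. The 3 libraries of a group came from 3 passages of the same cells, and p-values measure the spread between these passages. The labels name no treatment.

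In neurons, where these genes are best known, each cell switches on a small and partly random set of isoform promoters. The proteins of that set pair across cell membranes with the same isoforms on neighbouring cells, which lets the branches of a neuron tell themselves from those of other neurons. An isoform promoter is chosen when CTCF and cohesin loop it to a distant enhancer, and unchosen promoters are kept silent by DNA methylation and by the chromatin protein SMCHD1. An alpha or gamma isoform has its own first exon, which codes for the outer part of the protein and is spliced to 3 exons that the whole cluster shares, whereas a beta isoform is made from a single exon. C-type isoforms (PCDHAC1, PCDHAC2, PCDHGC3, PCDHGC4 and PCDHGC5) lie at the ends of the alpha and gamma clusters and follow less random rules in neurons. The question here was which isoforms each cloned population used compared with its parental line.

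On GRCh38 the alpha members run from 140786136 to 141012347, the beta members from 141051374 to 141249365 and the gamma members from 141330514 to 141512977 of chromosome 5, all on the plus strand. The constant exons are 59, 89 and 2721 bases long in the alpha cluster and 59, 89 and 2029 bases long in the gamma cluster (GENCODE 44), and stand in all 15 alpha and all 22 gamma members. Reads from a constant exon therefore belong to no single isoform. Of the stretches of 31 bases in the transcripts of a member, 28.5% to 71.5% occurred in no other gene in the alpha cluster (median 46.3%), 41.8% to 93.9% in the beta cluster (median 76.7%) and 26.6% to 62.1% in the gamma cluster (median 55.3%). The transcript estimates were made by the study from such matches. Levels of alpha and gamma members, and of beta members that share stretches, therefore depend on how shared reads were split. The beta member with the lowest share of its own was PCDHB8, with 41.8% of its stretches in no other gene and 55.9% in other members.

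The promoters of the members that the results turn on are shown here, because promoter choice is what sets an isoform's use. Windows of 300 bases, 250 before and 50 after the start of a gene, were available from RefSeq for 47 of the 53 members, of which 5 had 2 windows (52 in all). Most members other than PCDHAC2, PCDHB1, PCDHGC4 and PCDHGC5 are known to carry a conserved sequence element around the letters CGCT. These letters, searched on both strands, were found in 51 of the 52 windows (98.1%) and in 70.0% of all 35116 windows of the table. A match need not be the element, since windows of the exceptions PCDHAC2, PCDHB1 and PCDHGC4 held the letters too. No window was searched for CTCF sites. The letters TATAAA, searched on both strands as well, were found in 6 of the 52 windows (11.5%) and in 11.5% of all windows. The windows of the members had a median GC content of 40.7%, against 58.7% in all windows. They are printed 5′ to 3′ on the plus strand of GRCh38.p14, with each CGCT match of either strand in capitals (AGCG is its reverse complement). They show PCDHGC3 (chr5:141475716-141476015), the most expressed member, PCDHB8 (chr5:141177540-141177839) and PCDHGB2 (chr5:141359886-141360185), which differed most between the Panc1 clones among the beta members and in the Panc1 Holoclone, and PCDHAC2 (chr5:140966226-140966525), the member that differed in a Panc89 clone.
PCDHGC3: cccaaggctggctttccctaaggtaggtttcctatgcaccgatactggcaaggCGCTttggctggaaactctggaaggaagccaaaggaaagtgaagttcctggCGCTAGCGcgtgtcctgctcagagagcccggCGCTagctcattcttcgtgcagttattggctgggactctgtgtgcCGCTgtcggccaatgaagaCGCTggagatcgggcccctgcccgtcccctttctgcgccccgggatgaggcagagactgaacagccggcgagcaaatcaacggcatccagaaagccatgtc
PCDHB8: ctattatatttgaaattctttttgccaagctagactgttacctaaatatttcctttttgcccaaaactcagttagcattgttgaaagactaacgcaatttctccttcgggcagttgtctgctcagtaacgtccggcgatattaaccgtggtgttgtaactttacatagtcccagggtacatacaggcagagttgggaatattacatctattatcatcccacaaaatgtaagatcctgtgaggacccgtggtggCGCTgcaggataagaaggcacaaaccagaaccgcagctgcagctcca
PCDHGB2: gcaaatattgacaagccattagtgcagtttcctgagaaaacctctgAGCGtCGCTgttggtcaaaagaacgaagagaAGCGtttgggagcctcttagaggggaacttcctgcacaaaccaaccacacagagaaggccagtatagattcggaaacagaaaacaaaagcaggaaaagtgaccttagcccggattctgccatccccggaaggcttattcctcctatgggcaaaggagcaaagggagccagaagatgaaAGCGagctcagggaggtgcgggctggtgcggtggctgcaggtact
PCDHAC2: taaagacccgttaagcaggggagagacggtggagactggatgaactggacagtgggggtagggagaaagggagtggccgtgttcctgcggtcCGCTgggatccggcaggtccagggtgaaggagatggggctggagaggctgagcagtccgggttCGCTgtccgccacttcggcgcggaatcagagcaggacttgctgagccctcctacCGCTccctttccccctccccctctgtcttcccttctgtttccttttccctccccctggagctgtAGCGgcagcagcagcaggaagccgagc
CGCT matches numbered 6 in the PCDHGC3 window, 1 in that of PCDHB8, 4 in that of PCDHGB2 and 4 in that of PCDHAC2. The GC content of these windows was 59%, 43.3%, 51.3% and 63%.

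The values are scaled TPM, a measure of transcript abundance relative to the whole library that allows levels of different genes to be compared per length, and they were deposited as log2(TPM + 1). TPM carry no read counts, so the depth of a library and the counting error of a value are unknown. Between 12932 and 14199 genes reached 1 TPM in a library. Of 8 tested epithelial markers, 6 were higher and 1 lower in parental Panc89 than in parental Panc1 cells, and of 7 tested mesenchymal markers 2 were higher and 3 lower. E-cadherin (CDH1) had mean levels of 0.99 to 2.84 TPM in the Panc1 groups and 75.3 to 98 TPM in the Panc89 groups. The 8 listed mesenchymal markers summed to group means of 2499 to 4690 TPM in Panc1 and 18.1 to 34.6 TPM in Panc89. VIM, at a mean of 3779 TPM, made up most of the sum in parental Panc1 cells. The mesenchymal transcription factors ZEB1 and SNAI2 went in opposite directions, ZEB1 with means of 14.2 to 17.2 TPM in Panc1 and 0.0519 to 1.47 TPM in Panc89, and SNAI2 with 0.0676 to 0.127 TPM and 10.4 to 23 TPM. Of 10 neuronal markers, SYT1 and TUBB3 were at 1 TPM or more in all 18 libraries, MAP2 in all but the Panc89 Paraclone, where it ranged from 0.41 to 4.35 TPM, and SYP in all Panc1 libraries. SNAP25 reached 1 TPM in all libraries of the Panc1 Paraclone alone and NEFL in those of the Panc89 Holoclone alone, and the group means of RBFOX3, STMN2, DCX and NEFM were at most 0.28 TPM. The 10 summed to group means of 192 to 237 TPM in Panc1 and 28.5 to 38.4 TPM in Panc89, with TUBB3 at 133 to 169 TPM and 12 to 29.4 TPM.

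Most members were hardly expressed. In every library 37 of the 53 stayed under 1 TPM, 11 of them under 0.1 TPM, and 5 reached 1 TPM in 1 or 2 libraries. The other 11 members reached 1 TPM in at least 3 libraries: PCDHA12 and PCDHAC2 of the alpha cluster, PCDHB2, PCDHB6, PCDHB8 and PCDHB14 of the beta cluster, and PCDHGB1, PCDHGB2, PCDHGA10, PCDHGB7 and PCDHGC3 of the gamma cluster. At 1 TPM or more in all 3 libraries, parental Panc1 cells expressed 8 members, Panc1 Holoclone cells 8 and Panc1 Paraclone cells 6. Each of the 3 Panc89 groups expressed 2. These were PCDHGC3 and PCDHGB1 in parental and Paraclone cells, and PCDHGC3 and PCDHB14 in the Holoclone. PCDHGB1 missed 1 TPM in 1 Holoclone library, at 0.919 TPM, and PCDHB14 in 1 parental library, at 0.714 TPM. The map of all members by library shows this as few bright rows among dark ones, with more of them in Panc1.

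**Figure D1:**
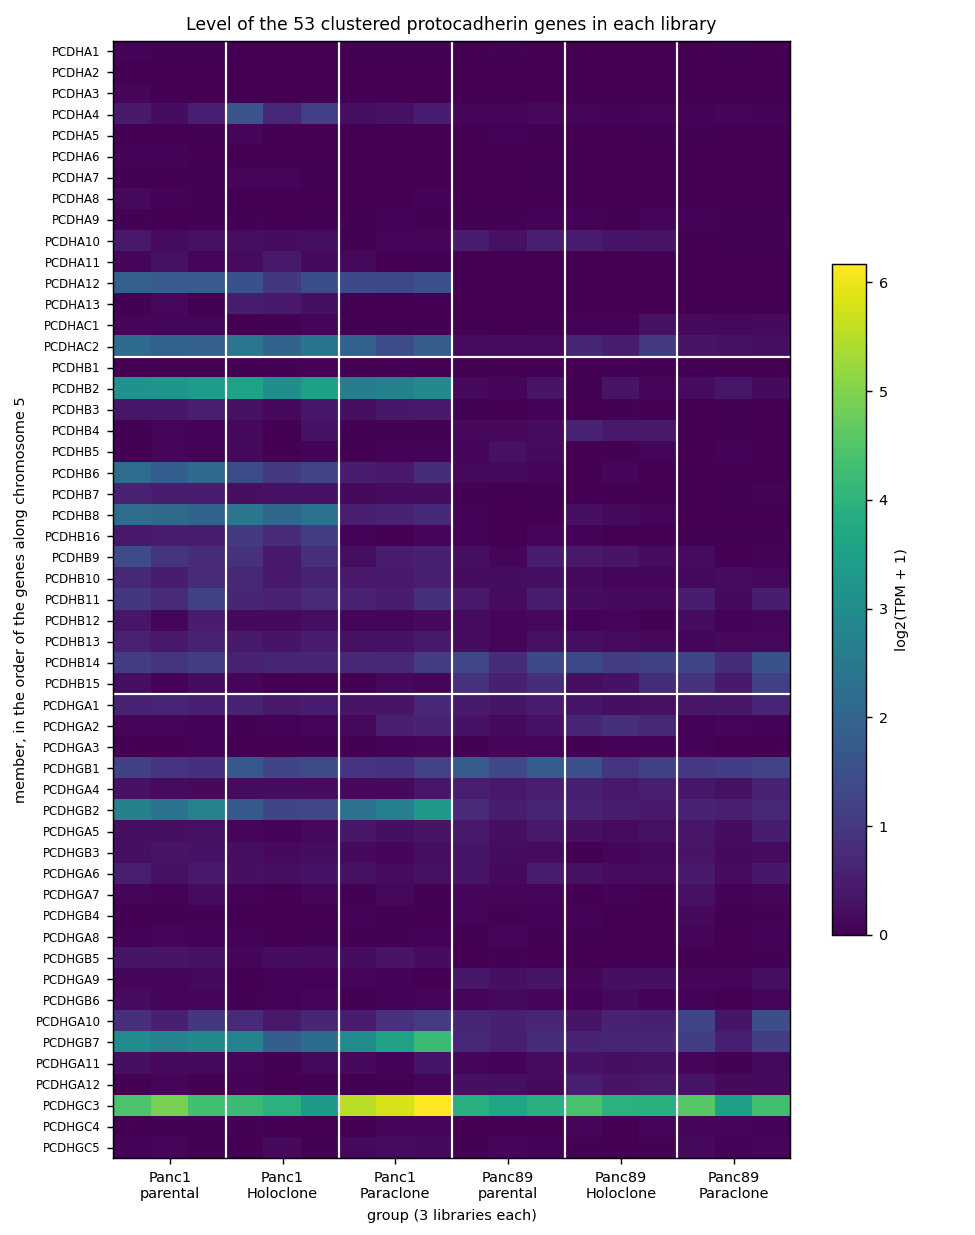
Level of the 53 members (rows, in gene order, with white lines between the alpha, beta and gamma clusters) in the 18 libraries (columns, 3 per group) as log2(TPM + 1). PCDHGC3 is the brightest row in all 6 groups, and PCDHA12, PCDHAC2, PCDHB2, PCDHB6, PCDHB8, PCDHGB2 and PCDHGB7 are brighter in Panc1 than in Panc89.

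PCDHGC3, a C-type gamma isoform with wide expression outside neurons, had the highest level of all members in each of the 6 groups. It stood at 20.4, 28.7 and 18.8 TPM in parental Panc1 cells, at 17.5, 14.2 and 9.25 TPM in the Panc1 Holoclone and at 44.5, 54.5 and 70.8 TPM in the Panc1 Paraclone. In Panc89 it stood at 13.6, 11.3 and 13.5 TPM in parental cells, at 20.1, 14.3 and 13.5 TPM in the Holoclone and at 22.6, 10.3 and 18.6 TPM in the Paraclone. The 3 Panc1 Paraclone libraries lay above all 15 others. PCDHGC3 has 8 annotated transcripts, 4 of them with fewer than 500 stretches of 31 bases of their own, and 61% of its stretches occur in no other gene. How much of its level comes from reads of the shared gamma exons was not tested.

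The share of PCDHGC3 in the summed TPM of all members was 34.6% ± 7.2 in parental Panc1 cells, 27.6% ± 7.4 in the Holoclone and 61.5% ± 2.0 in the Paraclone (SD, n = 3). In Panc89 the shares were 55.7% ± 4.0, 61.8% ± 4.6 and 63.8% ± 3.7 in the same order. Among the other C-type members, PCDHAC2 had means of 2.98, 3.85 and 2.33 TPM in parental Panc1 cells, the Holoclone and the Paraclone. The rest were low: PCDHAC1 stayed at or under 0.206 TPM, PCDHGC4 at or under 0.0849 TPM and PCDHGC5 at or under 0.14 TPM in all libraries.

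Summed over each cluster, the Panc1 Paraclone held less beta RNA than the other Panc1 groups and, with PCDHGC3 counted, more gamma RNA. The beta members summed to 20.7 ± 1.59 TPM in parental Panc1 cells, 19.1 ± 3.85 TPM in the Holoclone and 9.69 ± 1.96 TPM in the Paraclone. The 21 gamma members other than PCDHGC3 summed to 15.5 ± 1.93, 9.5 ± 2.72 and 21.8 ± 9.20 TPM, and the alpha members to 6.43 ± 0.780, 7.5 ± 1.88 and 4.43 ± 0.770 TPM in the same order. In Panc89 the beta sums were 3.4 ± 1.12, 3.13 ± 0.264 and 3.1 ± 1.08 TPM, the alpha sums 0.65 ± 0.149, 1.22 ± 0.473 and 0.448 ± 0.0610 TPM, and the gamma sums without PCDHGC3 6.31 ± 1.3, 5.36 ± 0.46 and 6.06 ± 2.03 TPM. Without PCDHGC3, the gamma sums of the Panc1 Paraclone libraries, at 13.8, 19.7 and 31.8 TPM, overlapped those of parental Panc1 cells, at 16.9, 13.3 and 16.3 TPM. Within Panc89, the beta and the gamma sums without PCDHGC3 overlapped among the 3 groups.

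**Figure D2:**
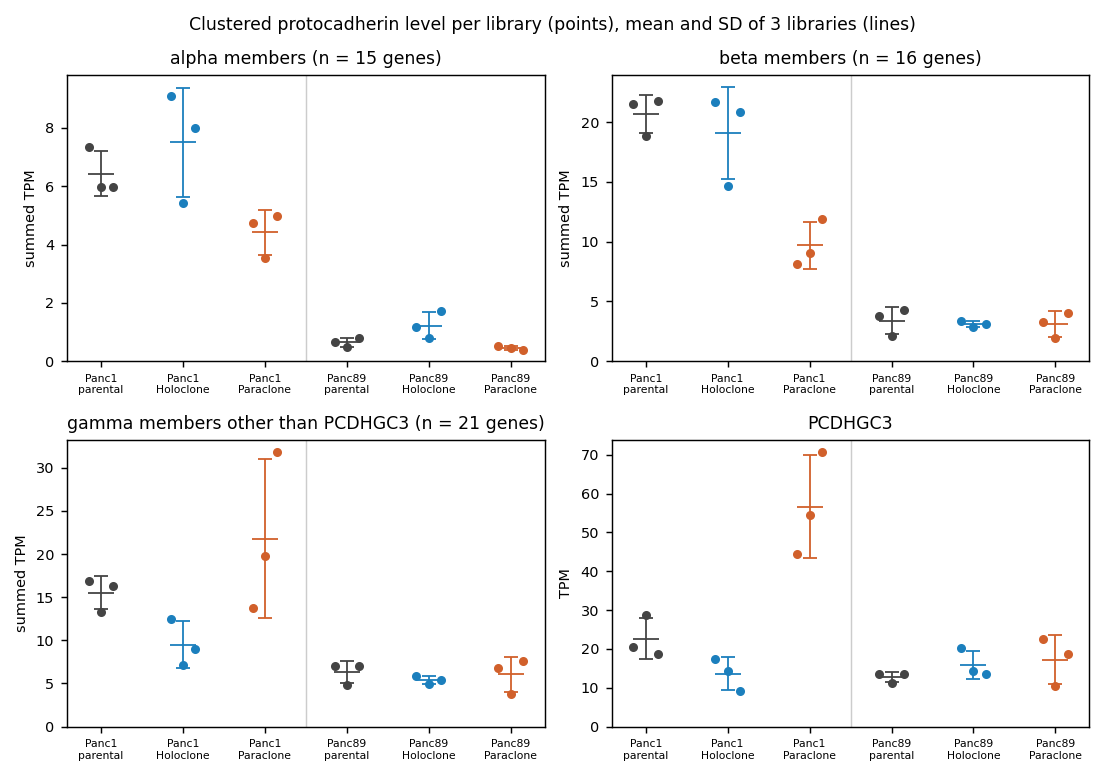
Summed TPM of the alpha members, the beta members and the gamma members other than PCDHGC3, and TPM of PCDHGC3 alone, by group. Points are libraries, and lines are the mean and SD of 3 libraries. The Panc1 Paraclone libraries sit lowest in Panc1 for the beta sum, with a mean of 9.69 TPM, and highest for PCDHGC3, from 44.5 to 70.8 TPM.

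The 11 members at 1 TPM or more in at least 3 libraries entered the tests between groups, which were run with limma on log2(TPM + 1) over 16093 genes. Of these 11, PCDHA12, PCDHB2, PCDHB6, PCDHB8 and PCDHGB2 reached 1 TPM in Panc1 libraries only, and none in Panc89 libraries only. They entered through the groups where they were high, so the counts below describe these 11 members and not the family. Adding 1 before the logarithm shrinks the differences of low genes, so ratios of the mean TPM are given for some of them.

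In the Panc1 Holoclone, 3 of the 11 tested members fell against parental Panc1 cells and none rose. Over all tested genes, 5.06% fell and 5.87% rose. Without the filter on low values the members called were not all on one side, with 5 of all 53 lower and 4 higher. The share of all genes called in that fit is not given. PCDHGB2, a gamma isoform of the B type, went from 5.55, 4.09 and 5.65 TPM in parental cells to 2.27, 1.45 and 1.5 TPM in the Holoclone. All 3 Holoclone libraries lay below all parental ones, with a ratio of 0.342 and a log2 difference of -1.16 (SE 0.212, limma adjusted p = 0.00193). PCDHB6, a beta isoform, went from 3.64, 2.57 and 3.29 TPM to 1.7, 1.08 and 1.38 TPM. Its groups did not overlap either, with a ratio of 0.437 and a log2 difference of -0.81 (SE 0.138, limma adjusted p = 0.00114).

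The third member to fall was PCDHA12, an alpha isoform, at 2.71, 2.44 and 2.39 TPM in parental Panc1 cells and 1.92, 0.994 and 1.79 TPM in the Holoclone. Its log2 difference was -0.47 (SE 0.134, limma adjusted p = 0.0333). This call was lost without any 1 of the 3 parental libraries or without Holoclone replicate 2, with limma adjusted p values from 0.0621 to 0.12 in these 4 fits. Of the 8 members not called in the Holoclone, PCDHGC3 had a log2 difference of -0.71 (95% confidence interval -1.30 to -0.12, limma adjusted p = 0.124) and PCDHGB1 of 0.48 (interval 0.09 to 0.87, limma adjusted p = 0.119). The libraries of the Holoclone and of the parental cells did not overlap for either gene. PCDHB8 and PCDHB2 had log2 differences of 0.18 (interval -0.07 to 0.44) and 0.13 (interval -0.20 to 0.46). Of the 8 members expressed in parental Panc1 cells the Holoclone expressed 7, which is also 7 of its own 8. PCDHA12 missed 1 TPM in 1 Holoclone library and PCDHGB1 reached it in all 3. PCDHGB1 stood close to that threshold in parental cells, at 1.3, 0.923 and 0.819 TPM, against 2.26, 1.45 and 1.72 TPM in the Holoclone.

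In the Panc1 Paraclone, 4 of the 11 members fell against parental Panc1 cells and 1 rose. Over all tested genes, 21.3% fell and 7.31% rose. The beta isoforms PCDHB8 and PCDHB6 had the largest differences. Both reached 1 TPM in parental and Holoclone libraries of Panc1 alone, so their lower levels in the Paraclone follow in part from the filter. PCDHB8 went from 3.59, 3.41 and 2.87 TPM in parental cells to 0.426, 0.503 and 0.605 TPM in the Paraclone, a ratio of 0.155 and a log2 difference of -1.50 (SE 0.119, limma adjusted p = 1.74e-07). PCDHB6 stood at 0.381, 0.334 and 0.728 TPM in the Paraclone, a ratio of 0.152 and a log2 difference of -1.49 (SE 0.138, limma adjusted p = 9.88e-07). Every Paraclone library lay below 1 TPM for both genes and below every parental library. How much of the PCDHB8 level comes from reads shared with other members was not tested. PCDHB6 and PCDHB8 were the 2 members expressed in parental Panc1 cells that the Paraclone did not express at 1 TPM, and the other 6 were all the members it expressed.

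PCDHGC3 was the member that rose in the Panc1 Paraclone, by a ratio of 2.5 and a log2 difference of 1.28 (SE 0.276, limma adjusted p = 0.0028). PCDHB2, the most expressed beta isoform, stood at 7.73, 8.32 and 9.37 TPM in parental cells and at 5.02, 5.53 and 6.49 TPM in the Paraclone (log2 difference -0.51, SE 0.155, limma adjusted p = 0.023). PCDHA12 stood at 1.57, 1.52 and 1.84 TPM in the Paraclone, with a log2 difference of -0.41 (SE 0.134, limma adjusted p = 0.0303). The last 2 calls were lost under other scalings of the libraries. The median of all tested genes was -0.17 on the log2 scale in this comparison, and upper quartile or median-of-ratios scaling brought it to -0.02 and -0.004. With either of them 2 members were called higher, PCDHGC3 and PCDHGB7, and 2 lower, PCDHB6 and PCDHB8. Of all 16093 tested genes, 3801 and 3760 were called under these scalings. Each of PCDHA12 and PCDHB2 also lost its call without some of the single libraries: PCDHA12 without any parental library or without Paraclone replicate 1 or 2, with limma adjusted p values from 0.0514 to 0.102, and PCDHB2 without parental replicate 3 or Paraclone replicate 1 or 2, with values from 0.0701 to 0.0859.

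PCDHGB7, a gamma isoform, was at 6.8, 5.69 and 6.64 TPM in parental Panc1 cells, at 5.71, 2.62 and 3.53 TPM in the Holoclone and at 6.82, 10.7 and 17.3 TPM in the Paraclone. The Paraclone libraries were all above the parental ones but spread widely, and the log2 difference of 0.69 had an interval of 0.12 to 1.26 (limma adjusted p = 0.0677). PCDHAC2, a C-type alpha isoform, was at 3.49, 2.76 and 2.71 TPM in parental cells and at 2.78, 1.65 and 2.55 TPM in the Paraclone, with a log2 difference of -0.27 (interval -0.65 to 0.10).

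**Figure D3:**
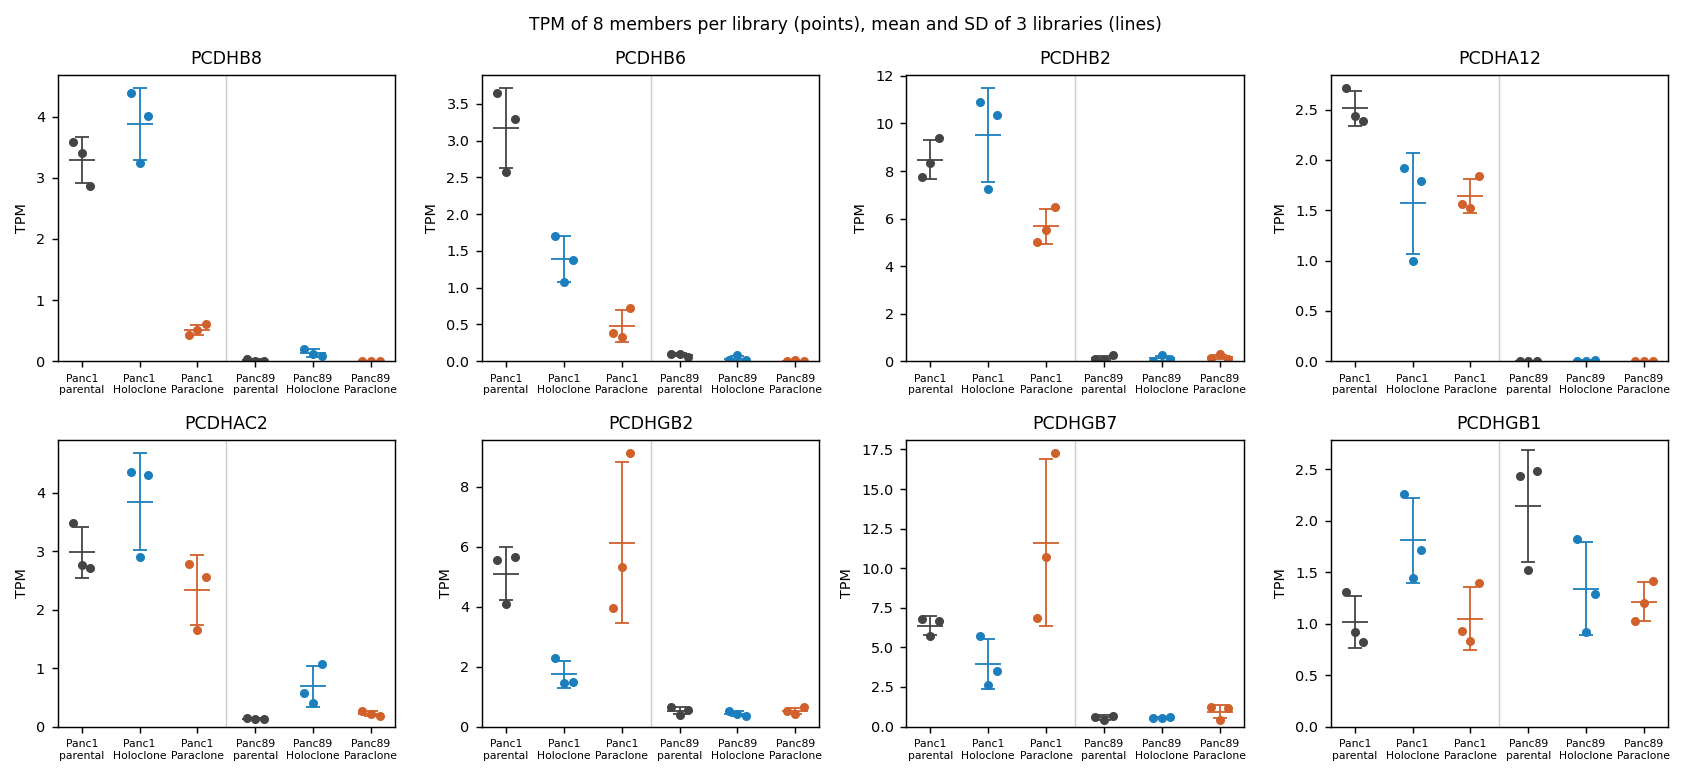
TPM of PCDHB8, PCDHB6, PCDHB2, PCDHA12, PCDHAC2, PCDHGB2, PCDHGB7 and PCDHGB1 in each library (points), with the mean and SD of 3 libraries (lines), by group. Each panel has its own axis from 0. PCDHB8 falls to a mean of 0.511 TPM in the Panc1 Paraclone from 3.29 TPM in parental Panc1 cells, and 7 of the 8 panels are lower in the Panc89 groups than in parental Panc1 cells, PCDHGB1 being the exception.

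Set against each other, the Panc1 Holoclone and Paraclone differed in 7 of the 11 members, of which 4 were higher and 3 lower in the Holoclone. Over all tested genes, 27.4% were higher and 9.97% lower in the Holoclone. The beta isoforms PCDHB8 (log2 difference 1.69, SE 0.119, limma adjusted p = 3.32e-08), PCDHB6 (0.69, SE 0.138, limma adjusted p = 0.00104) and PCDHB2 (0.64, SE 0.155, limma adjusted p = 0.00404) were higher in the Holoclone, as was PCDHAC2 (0.54, SE 0.176, limma adjusted p = 0.0232). The gamma isoforms PCDHGC3 (-1.99, SE 0.276, limma adjusted p = 4.36e-05), PCDHGB2 (-1.33, SE 0.212, limma adjusted p = 0.000156) and PCDHGB7 (-1.31, SE 0.269, limma adjusted p = 0.00125) were higher in the Paraclone. For all 7 members the libraries of the 2 clones did not overlap. PCDHB8 and PCDHB6 had passed the filter through libraries other than those of the Paraclone, so their direction here follows in part from it. Under either other scaling, which moved the median of all tested genes from 0.19 to 0.01 or 0, PCDHB2 and PCDHAC2 were no longer called, and 2 members were higher and 3 lower in the Holoclone. Of all 16093 tested genes, 5155 and 5123 were called under these scalings. PCDHAC2 also lost its call without Holoclone replicate 1 or 3 or Paraclone replicate 2, with limma adjusted p values from 0.0886 to 0.131.

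In Panc89 few of the 11 tested members were called. On the scale used, most of them had limited room to fall from their parental Panc89 levels. The largest possible fall was 0 for PCDHA12, 0.02 for PCDHB8, 0.12 for PCDHB6, 0.18 for PCDHAC2 and 0.19 for PCDHB2. It was 0.61 for PCDHGB2, 0.62 for PCDHGA10 and 0.65 for PCDHGB7. PCDHB14, PCDHGB1 and PCDHGC3 had more room, at 1.14, 1.64 and 3.78. Without the filter on low values, 4 of all 53 members were higher and 1 lower in the Panc89 Holoclone, with no share of all genes given for that fit. In the Holoclone 1 of the 11 members rose and none fell, against 16.1% and 8.61% of all tested genes. That member was PCDHAC2, at 0.141, 0.127 and 0.136 TPM in parental cells, 0.582, 0.405 and 1.07 TPM in the Holoclone and 0.262, 0.208 and 0.178 TPM in the Paraclone. The 3 groups did not overlap. The Holoclone differed from parental cells by 0.55 on the log2 scale, with a ratio of 5.1 at levels mostly under 1 TPM (SE 0.176, limma adjusted p = 0.0314). The call was lost without any 1 of the 3 parental libraries and without Holoclone replicate 3, with limma adjusted p values from 0.0744 to 0.149 in these 4 fits.

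In the Panc89 Paraclone limma called none of the 11 members, against 9.37% of all tested genes that rose and 10.0% that fell. The same members had limited room to fall here. Without the filter on low values, 3 of all 53 members were lower and 0 higher, with no share of all genes given for that fit. Among the 11 tested members the following values apply. At an unadjusted p under 0.05 there was 1 member, PCDHGB1, an isoform of the B type in the gamma cluster. PCDHGB1 stood at 2.44, 1.52 and 2.48 TPM in parental Panc89 cells, at 1.82, 0.919 and 1.29 TPM in the Holoclone and at 1.03, 1.2 and 1.41 TPM in the Paraclone. The Paraclone libraries lay below the parental ones, with a log2 difference of -0.49 (interval -0.88 to -0.10, limma adjusted p = 0.0727), and the Holoclone overlapped them (-0.43, interval -0.82 to -0.04, limma adjusted p = 0.105). PCDHGC3 had log2 differences of 0.28 (interval -0.31 to 0.87) in the Holoclone and 0.34 (interval -0.25 to 0.92) in the Paraclone.

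Between the Panc89 Holoclone and Paraclone limma also called none of the 11 members, with 22.4% of all tested genes higher and 13.3% lower in the Holoclone. Without the filter on low values, 5 of all 53 members were higher and 0 lower in the Holoclone, with no share of all genes given for that fit. Of the 11 tested members 2 had an unadjusted p under 0.05, PCDHAC2 (log2 difference 0.45, limma adjusted p = 0.0567) and PCDHGA10 (-0.53, limma adjusted p = 0.0996). PCDHGA10 stood at 1.44, 0.268 and 1.73 TPM in the Paraclone and 0.263, 0.522 and 0.463 TPM in the Holoclone, so that 1 Paraclone library lay among the Holoclone ones. PCDHB14, a beta isoform and among the 3 most expressed members of each Panc89 group, stood at 1.46, 0.714 and 1.55 TPM in parental cells, 1.57, 1.14 and 1.28 TPM in the Holoclone and 1.45, 0.74 and 1.9 TPM in the Paraclone. Its groups overlapped, and its log2 differences from parental cells were 0.07 (interval -0.34 to 0.48) and 0.07 (interval -0.35 to 0.48).

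**Figure D4:**
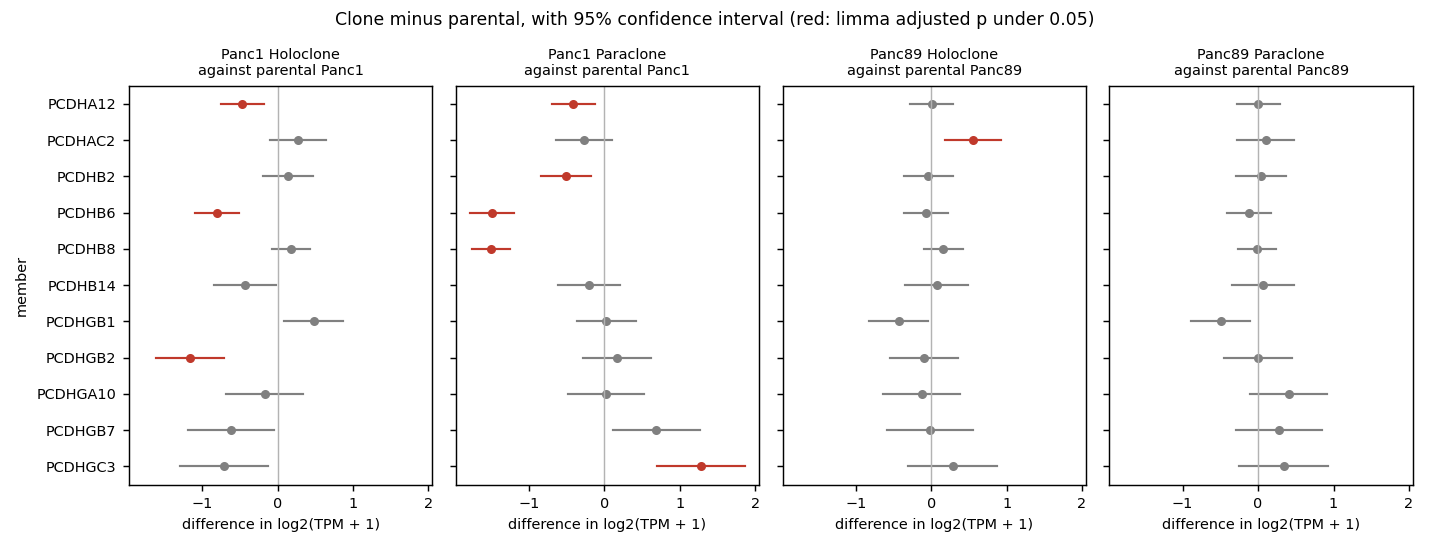
Difference in log2(TPM + 1) of each clone from its parental line for the 11 tested members, with 95% confidence intervals. Red marks a limma adjusted p under 0.05. The largest differences are the falls of PCDHB8 and PCDHB6 (-1.50 and -1.49) and the rise of PCDHGC3 (1.28) in the Panc1 Paraclone, and only PCDHAC2 is red in a Panc89 clone.

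More members were called between the parental lines than between any clone and its parental line. The same held for all tested genes, with 10623 called between the parental lines and at most 4599 for a clone. PCDHA12, PCDHB2, PCDHB6, PCDHB8 and PCDHGB2 had passed the filter through Panc1 libraries only, so their lower levels in Panc89 follow in part from it. Without the filter, 19 of all 53 members were lower and 6 higher in parental Panc89 cells, with no share of all genes given for that fit. Parental Panc89 cells were lower than parental Panc1 cells in 8 of the 11 members and higher in 1, against 38.5% and 27.5% of all tested genes. Of 23 tested genes next to the clusters, 17 were lower and 4 higher in parental Panc89 cells, with a median log2 difference of -0.63. Of 6 tested protocadherins outside the clusters, 1 was lower and 3 were higher, with a median of 0.69. The median of all tested genes was -0.18. PCDHB2 was at 0.107, 0.0726 and 0.248 TPM in parental Panc89 cells, a log2 difference of -3.05 (SE 0.155, limma adjusted p = 9.38e-11). PCDHGB7 was at 0.633, 0.42 and 0.664 TPM (-2.23, SE 0.269, limma adjusted p = 2.44e-06), and PCDHB8 was at 0.0418 TPM in 1 library and listed at 0 in the other 2 (-2.08, SE 0.119, limma adjusted p = 4.22e-10). PCDHA12 was listed at 0 in all 3. None of the libraries of the lines overlapped for these members. PCDHGB1 was the member that was higher in parental Panc89 cells (0.63, SE 0.183, limma adjusted p = 0.00639), and PCDHGC3 was lower by 0.76 (SE 0.276, limma adjusted p = 0.0243), a call that both other scalings, which brought the median of all tested genes from -0.18 to -0.04 or 0.02, ended. It was also lost without Panc1 parental replicate 2 (limma adjusted p = 0.106) or Panc89 parental replicate 2 (limma adjusted p = 0.0778).

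Tests of whether a clone's change differed between the lines called 3 of the 11 members for the Holoclone, against 18.7% of all tested genes, and 2 for the Paraclone, against 25.8%. PCDHGB1 was called for the Holoclone, with log2 differences of 0.48 in Panc1 and -0.43 in Panc89 (difference -0.91, SE 0.259, limma adjusted p = 0.0229). The other 4 calls, PCDHGB2 and PCDHB6 for the Holoclone and PCDHB8 and PCDHB6 for the Paraclone, could not be read as a smaller change in Panc89. These 3 genes passed the filter through Panc1 libraries alone and were under 0.66 TPM in every Panc89 library. From the parental Panc89 levels, the largest fall that log2(TPM + 1) allows was 0.61 for PCDHGB2, 0.12 for PCDHB6 and 0.02 for PCDHB8, less than each fall in Panc1. By the ratio of mean TPM, PCDHB6 in the Paraclone stood at 0.0386 of the parental level in Panc89 and 0.152 in Panc1, PCDHB6 in the Holoclone at 0.413 and 0.437, PCDHB8 in the Paraclone at 0.229 and 0.155, and PCDHGB2 in the Holoclone at 0.802 and 0.342. The Panc89 Paraclone ratios rest on values near 0, with PCDHB6 at 0, 0.0101 and 0 TPM and PCDHB8 at 0, 0.00957 and 0 TPM. They cannot be compared closely with the Panc1 ratios. For PCDHGC3 the change in the Paraclone did not differ between lines past the threshold (-0.94, SE 0.39, limma adjusted p = 0.0894).

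Some members that did not enter the tests also had libraries of a clone apart from those of its parental cells. They were chosen after their values were seen, and their limma values come from the fit without the filter on low values. In the Panc1 Holoclone, PCDHA4 stood at 1.97, 0.603 and 1.24 TPM, against 0.367, 0.156 and 0.42 TPM in parental cells and 0.178, 0.224 and 0.384 TPM in the Paraclone. PCDHB16, the neighbour of PCDHB8, stood at 1.06, 0.664 and 1.14 TPM in the Holoclone, at 0.35, 0.382 and 0.406 TPM in parental cells and at 0.036, 0.00829 and 0.0745 TPM in the Paraclone. Against parental cells the Holoclone had log2 differences of 0.75 for PCDHA4 (limma adjusted p = 0.00919) and 0.50 for PCDHB16 (limma adjusted p = 0.000435), and the Paraclone of -0.41 for PCDHB16 (limma adjusted p = 0.000958). For both genes all Holoclone libraries lay above all other Panc1 libraries. For PCDHB16 the Paraclone also lay below the parental cells, as PCDHB8 and PCDHB6 did. How far shared reads tie the levels of PCDHB16 and PCDHB8 together was not tested.

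In the Panc89 Holoclone, PCDHGA2 stood at 0.58, 0.782 and 0.647 TPM, against 0.225, 0.116 and 0.223 TPM in parental cells and 0.0459, 0.0668 and 0.0513 TPM in the Paraclone. PCDHB4 stood at 0.532, 0.345 and 0.33 TPM in the Holoclone, at 0.0955, 0.0892 and 0.15 TPM in parental cells and at or below 0.0247 TPM in the Paraclone. PCDHA10 stood at 0.0158, 0.0284 and 0.0208 TPM in the Paraclone and at 0.396, 0.209 and 0.449 TPM in parental cells. Against parental cells the log2 differences were 0.49 for PCDHGA2 (limma adjusted p = 0.00152) and 0.33 for PCDHB4 (limma adjusted p = 0.00237) in the Holoclone and -0.40 for PCDHA10 (limma adjusted p = 0.00139) in the Paraclone. At these levels the groups did not overlap for any of the 3 genes in the pairs named, and the number of reads behind the values is unknown.

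Genes that choose or silence these promoters were followed as lists. Counts of these lists and of those that follow were not made under the other scalings of the libraries. The shares of all tested genes that rose and fell were 5.87% and 5.06% in the Panc1 Holoclone, 7.31% and 21.3% in the Panc1 Paraclone, 16.1% and 8.61% in the Panc89 Holoclone, and 9.37% and 10.0% in the Panc89 Paraclone. Of 11 CTCF and cohesin genes, 1 rose and none fell in the Panc1 Holoclone (median log2 difference 0.19, all tested genes 0.01), none rose and 5 fell in the Panc1 Paraclone (-0.45, all genes -0.17), none was called in the Panc89 Holoclone (0.11, all genes 0.08, with 2 at an unadjusted p under 0.05) and none rose and 3 fell in the Panc89 Paraclone (-0.31, all genes -0.02). CTCF itself, the factor that marks the chosen promoter, fell in both Paraclones, from a mean of 29.8 to 16.7 TPM in Panc1 (log2 difference -0.81, SE 0.157, limma adjusted p = 0.00128) and from 34.2 to 23.2 TPM in Panc89 (-0.56, SE 0.157, limma adjusted p = 0.0188). STAG1, a cohesin subunit, fell in the Panc1 Paraclone (-1.09, limma adjusted p = 0.00602), and RAD21, the subunit that closes the cohesin ring, in the Panc89 Paraclone (-1.24, limma adjusted p = 0.00136). Their part in the levels of the members was not tested.

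Of 16 genes of cluster silencing and DNA methylation, 3 rose in the Panc1 Holoclone and 3 in the Panc89 Holoclone and none fell (median log2 differences 0.28 and 0.04). In the Panc1 Paraclone 7 fell and none rose (-0.39), where 21.3% of all tested genes fell and 7.31% rose, and in the Panc89 Paraclone none was called by limma (-0.04), with 4 at an unadjusted p under 0.05. The medians of all tested genes were 0.01 and 0.08 in these Holoclones and -0.17 and -0.02 in the Paraclones. TET3, which oxidizes methylated cytosine, rose in both Holoclones (log2 difference 0.66, limma adjusted p = 0.00964 in Panc1, and 0.57, limma adjusted p = 0.0117 in Panc89) and fell in the Panc1 Paraclone (-0.58, limma adjusted p = 0.00956). REST, a repressor of neuronal genes, rose in both Holoclones (0.41, limma adjusted p = 0.0229, and 0.33, limma adjusted p = 0.0412). DNMT3A, a DNA methyltransferase that sets new marks, fell in the Panc1 Paraclone (-0.81, limma adjusted p = 0.00299). The largest called change of this list was that of SUZ12 in the Panc1 Holoclone (0.96, limma adjusted p = 0.00317). In the Panc1 Paraclone it was that of TET1 (-0.87, limma adjusted p = 0.000447), from a mean of 1.01 to 0.0942 TPM.

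Of 18 partners of the clustered protocadherins in the cytoplasm and membrane, 4 rose and 1 fell in the Panc1 Holoclone, 1 rose and 6 fell in the Panc1 Paraclone, 4 rose and 1 fell in the Panc89 Holoclone, and 3 rose and 3 fell in the Panc89 Paraclone, with median log2 differences of 0.18, -0.27, 0.15 and 0.10 in this order, against 0.01, -0.17, 0.08 and -0.02 over all tested genes. Of all tested genes 5.87% rose and 5.06% fell in the Panc1 Holoclone, and 7.31% rose and 21.3% fell in the Panc1 Paraclone. For Panc89 these shares were 16.1% and 8.61% in the Holoclone and 9.37% and 10.0% in the Paraclone. The kinase FYN fell in the Panc1 Paraclone from a mean of 25 to 4.95 TPM (log2 difference -2.19, limma adjusted p = 0.000438) and in the Panc89 Paraclone from 5.51 to 1.48 TPM (-1.38, limma adjusted p = 0.0151), and it rose in the Panc89 Holoclone to 46.1 TPM (2.82, limma adjusted p = 4.37e-05). The receptor kinase RET, which associates with alpha and gamma isoforms in neurons, fell in the Panc1 Paraclone from 3.19 to 0.3 TPM (-1.68, limma adjusted p = 2.23e-05).

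Of 6 tested protocadherins outside the clusters, 2 fell in the Panc1 Holoclone and none rose, 2 rose and 1 fell in the Panc1 Paraclone, 2 rose and none fell in the Panc89 Holoclone, and limma called none in the Panc89 Paraclone, with 0 at an unadjusted p under 0.05. Their median log2 differences were -0.46, 0.11, 0.35 and -0.16 in this order, against 0.01, -0.17, 0.08 and -0.02 over all tested genes. Of all tested genes 5.06% fell in the Panc1 Holoclone, 7.31% rose and 21.3% fell in the Panc1 Paraclone, and 16.1% rose in the Panc89 Holoclone. PCDH7 rose in the Panc1 Paraclone from a mean of 1.16 to 19 TPM (log2 difference 3.17, limma adjusted p = 4.05e-05), and PCDH9 from 0.195 to 1.53 TPM (1.07, limma adjusted p = 9.66e-05). PCDH1, which lies near the gamma cluster, fell in the Panc1 Holoclone from 3.26 to 0.859 TPM (-1.20, limma adjusted p = 0.00394) and rose in the Panc89 Holoclone from 45.2 to 90.9 TPM (1.00, limma adjusted p = 0.0067).

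Of 23 tested genes next to the clusters, 6 fell and none rose in the Panc1 Holoclone (median log2 difference -0.28, all genes 0.01), and 8 fell and none rose in the Panc1 Paraclone (-0.29, all genes -0.17). In Panc89, 4 rose and 1 fell in the Holoclone (0.13, all genes 0.08), and 4 rose and 2 fell in the Paraclone (0.09, all genes -0.02). Of all tested genes, 5.87% rose and 5.06% fell in the Panc1 Holoclone, and 7.31% rose and 21.3% fell in the Panc1 Paraclone. In the Panc89 Holoclone 16.1% rose and 8.61% fell, and in the Panc89 Paraclone 9.37% rose and 10.0% fell. PCDH1 is counted both here and among the protocadherins outside the clusters. DELE1, whose product signals mitochondrial stress, fell in both Panc1 clones, from a mean of 77.4 TPM to 39.6 TPM in the Holoclone (-0.96, limma adjusted p = 0.000189) and 49.2 TPM in the Paraclone (-0.64, limma adjusted p = 0.00204). The number of copies of the region in these cells was not analysed here.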

How the data were processed

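RNA of 3 passages of each cell variant was sequenced paired-end from stranded mRNA libraries. The authors used kallisto 0.46.1 with the Ensembl GRCh38 transcriptome, summed its estimates by gene through tximport as scaled TPM, and deposited log2(TPM + 1) values per gene symbol. The TPM of a library summed to between 985339 and 988066. Groups were taken from the sample labels. The pattern matched 54 symbols, of which PCDHA14 was left out as a pseudogene. Gene positions and transcripts were taken from GENCODE 44, and promoter windows from RefSeq.

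Differences were tested with limma 3.58.1 (trend) in R 4.3.3, with a mean per group over all 18 libraries, for genes that reached 1 TPM in 3 or more libraries, two-sided, with Benjamini-Hochberg adjustment over the 16093 genes and a threshold of 0.05. The fit was tested on simulated data. Named were the 3 most expressed members of each group, the C-type members, called members by size of change with at least 1 TPM and no overlap of replicates, and up to 3 called genes of each other list by size. The members and lists were chosen with earlier results of these data known. Replicate numbers did not pair the libraries: same-numbered libraries of a line had correlations of their deviations from -0.318 to 0.19 (18 pairs), so no pairing was used.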

Additional observations from a re-analysis of the deposited data

Results flagged for a closer look

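The change of a clone from its parental line differed between Panc1 and Panc89 for 5 combinations of member and clone by limma's test of the difference itself. Of all tested genes, 18.7% were called in this test for the Holoclone and 25.8% for the Paraclone. Given as the Panc89 change minus the Panc1 change on the log2(TPM + 1) scale, the difference was 1.05 for PCDHGB2, -0.91 for PCDHGB1 and 0.74 for PCDHB6 in the Holoclone, and 1.49 for PCDHB8 and 1.38 for PCDHB6 in the Paraclone. For PCDHGB2, PCDHB6 and PCDHB8 the fall in Panc1 exceeded the largest fall this scale allows from the parental Panc89 level, so these differences do not show a smaller relative change in Panc89. PCDHGB2 and PCDHGB1 lost this call without some single libraries. For PCDHGB2 these were Panc1 parental replicate 1 or 3, Panc1 Holoclone replicate 3 or Panc89 parental replicate 2, with limma adjusted p values from 0.0505 to 0.0552. For PCDHGB1 they were Panc1 parental replicate 3, Panc1 Holoclone replicate 1, Panc89 parental replicate 1 or 3 or Panc89 Holoclone replicate 2, with values from 0.0552 to 0.066.

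Among the pseudogenes of the clusters, which entered no comparison, PCDHB18P had a mean of 0.144 TPM in the Panc89 Paraclone, at 0.157, 0.106 and 0.17 TPM, and stood at 0.066, 0.0467 and 0.0976 TPM in parental Panc89 cells. It is singled out because every Paraclone library was at or above 0.1 TPM and above every parental library. Reads shared with the beta members cannot be told apart from its own in these values.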

How the results depend on the processing

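For 27 single named differences, 328 alternative values kept the direction and the call and 64 lost the call, with no change of sign.

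Without the filter on low values, which tests all 53 members, limma called 9 members in the Panc1 Holoclone (4 higher, 5 lower), 10 in the Panc1 Paraclone (2 higher, 8 lower), 5 in the Panc89 Holoclone (4 higher, 1 lower) and 3 in the Panc89 Paraclone (all lower) against parental cells. It then called 15 between the Panc1 clones (10 higher and 5 lower in the Holoclone), 5 between the Panc89 clones (all higher in the Holoclone), 25 between the parental lines (6 higher and 19 lower in Panc89), and 8 and 5 in the tests between lines for the Holoclone and the Paraclone. With at least 5 TPM required, 1 was called in the Panc1 Holoclone, 2 in the Panc1 Paraclone, 0 in the Panc89 Holoclone, 4 between the Panc1 clones, 4 between the parental lines, and 1 and 0 in the tests between lines. Fewer members are then tested. A pseudocount of 0.1 TPM gave 3 calls in the Panc1 Paraclone, 2 in the Panc89 Holoclone and 2 between the Panc89 clones. Median-of-ratios scaling gave 2 in the Panc89 Holoclone, with 3853 of all 16093 tested genes called. A log2 difference over 1 left 1 call in the Panc1 Holoclone, 3 in the Panc1 Paraclone, 0 in the Panc89 Holoclone, 4 between the Panc1 clones and 1 in the Holoclone test between lines. With 0.1 TPM PCDHA12 lost its call in both Panc1 clones, PCDHB2 in the Panc1 Paraclone and between the Panc1 clones, PCDHAC2 between the Panc1 clones, and PCDHGB2 and PCDHB6 in the Holoclone test between lines. For the settings here other than median-of-ratios scaling, the share of all genes called is not given, so their counts are not set against it. Apart from the filters, the cause of the lost calls was not tested.

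With the replicate number as a replicate block, 1 member (PCDHAC2) was called between the Panc89 clones, where none was without it. No other count moved by over 1.5 times, with 2 calls in the Panc1 Holoclone and 5 in the Panc1 Paraclone. The share of all genes called with the block is not given.

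Leaving out 1 library at a time gave 3 to 5 calls in the Panc1 Paraclone (3 without Panc1 parental replicate 3 or Paraclone replicate 2), 0 to 2 in the Panc89 Holoclone (0 without Panc89 parental replicate 1 or 3 or Holoclone replicate 3, 2 without Holoclone replicate 1), 0 to 1 in the Panc89 Paraclone (1 without Panc89 parental replicate 2 or Paraclone replicate 2), 0 to 1 between the Panc89 clones (1 without Panc89 Holoclone replicate 2 or Paraclone replicate 2) and 1 to 3 in the Holoclone test between lines (1 without Panc1 parental replicate 3). Shares of all genes called are not given for the fits without 1 library, so these counts are not set against them. At 2 TPM in place of 1 TPM, 5 members were expressed in the Panc1 Holoclone and 1 in each Panc89 group, and at 0.5 TPM 5 were expressed in the Panc89 Holoclone. Read counts were not analysed here, so depth sets no stated limit for single values.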

Other observations

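PCDHB17P, another pseudogene of the beta cluster, stood at 0.76 TPM in Panc1 Holoclone replicate 1 and 0.222 TPM in replicate 3 and was listed at 0 in replicate 2, with at most 0.0811 TPM in the parental Panc1 libraries. Among members too low for the tests, PCDHA13 stood at 0.398, 0.343 and 0.198 TPM in the Panc1 Holoclone, against at most 0.104 TPM in all other Panc1 libraries, and PCDHB15 stood at 0.833, 0.467 and 0.742 TPM in parental Panc89 cells, against at most 0.179 TPM in all Panc1 libraries. These genes were chosen after their values were seen. In the fit without the filter on low values, PCDHA13 was higher in the Panc1 Holoclone than in parental cells (log2 difference 0.33, limma adjusted p = 0.000354) and PCDHB15 higher in parental Panc89 than in parental Panc1 cells (0.57, limma adjusted p = 0.0123).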
